A study of Mus musculus with 17 samples.

Results

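Toll-like receptors are the germline-encoded sensors with which macrophages detect microbial lipids, proteins and nucleic acids. Expression of their genes was followed in kidney macrophages of NZB/W mice, a hybrid strain that develops lupus nephritis spontaneously. The members were taken by name: Tlr1, Tlr2, Tlr4, Tlr5 and Tlr6, whose products sit at the cell surface, and Tlr3, Tlr7, Tlr8, Tlr9 and Tlr13, whose products sit in endosomes. Of these 10 genes, 9 were measured among 15780 genes with 1 symbol on the array. Tlr5, the flagellin receptor, was not analysed here.

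Cells with high surface F4/80 were sorted by flow cytometry from the kidneys, and their total RNA was hybridised to Affymetrix arrays. The remission group (4 arrays) came from mice 3 to 4 weeks after complete remission, reached with 1 dose of cyclophosphamide, 6 doses of CTLA4Ig, which blocks T cell costimulation, and anti-CD154, an antibody to the ligand of CD40. The nephritic group (7 arrays) came from mice 2 to 6 weeks after the start of proteinuria and ahead of terminal renal failure. The prenephritic group (6 arrays) came from mice aged 8 to 16 weeks. The labels give no age for the nephritic and remission mice, so nephritis and age cannot be told apart, nor can remission and drug treatment. Whether each array stands for a different animal is not in the labels. The p-values therefore cover only the spread between these samples, which may be technical. The array medians lay between 7.49 and 7.68 on the log2 scale, and the correlation between any pair of arrays lay between 0.942 and 0.994. The markers of the sorted cell type were high on all arrays. The mean level of 10 macrophage genes, among them Adgre1, which encodes F4/80, Csf1r and Cd68, ranged from 12.28 to 12.56 in remission, from 12.41 to 12.68 in nephritic and from 12.21 to 12.55 in prenephritic arrays.

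As background, the surface receptors work in pairs or with helper proteins. Tlr2 joins Tlr1 to bind triacylated lipopeptides and Tlr6 to bind diacylated ones, and Tlr4 binds lipopolysaccharide together with Ly96 (MD-2) and Cd14. The endosomal receptors read nucleic acids, are carried to endosomes by Unc93b1 and are activated there by proteases. In lupus, Tlr7 and Tlr9 are best known for their response to RNA and DNA in immune complexes, above all in B cells and plasmacytoid dendritic cells. All of these receptors except Tlr3 signal through the adaptor Myd88, which leads to NF-kB and interferon regulatory factors.

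Tlr8 was the member that differed between the states of the kidney. Its level was higher in nephritic than in prenephritic macrophages and lower in remission than in nephritic ones. The window of 250 bases before to 50 bases after its transcription start is printed because it is the member that moved. The window of Tlr13, another endosomal receptor gene on the X chromosome that was not called in any comparison, is printed for contrast. Both are given 5′ to 3′ on the gene's strand, from RefSeq with build GRCm38.p6, at chrX:167264280-167264579 on the minus strand for Tlr8 and chrX:106143025-106143324 on the plus strand for Tlr13. Capitals mark the core letters of a PU.1 site, GAGGAA, searched on both strands.
Tlr8: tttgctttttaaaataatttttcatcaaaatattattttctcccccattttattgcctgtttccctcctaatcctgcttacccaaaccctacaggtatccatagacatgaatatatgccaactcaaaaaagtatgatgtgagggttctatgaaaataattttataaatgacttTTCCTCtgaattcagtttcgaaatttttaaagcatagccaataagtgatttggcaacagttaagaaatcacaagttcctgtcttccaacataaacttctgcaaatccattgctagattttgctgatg
Tlr13: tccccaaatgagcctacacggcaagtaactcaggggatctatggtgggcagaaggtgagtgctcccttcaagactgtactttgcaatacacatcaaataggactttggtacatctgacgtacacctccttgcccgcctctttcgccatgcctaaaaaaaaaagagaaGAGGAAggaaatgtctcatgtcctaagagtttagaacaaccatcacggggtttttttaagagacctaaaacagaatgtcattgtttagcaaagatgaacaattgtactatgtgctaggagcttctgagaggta
PU.1 is the factor that drives macrophage gene expression. The core was found on the opposite strand at position -77 from the start in Tlr8 and on the gene's strand at -83 in Tlr13, so the called and the uncalled gene both hold it. Of 32851 windows of the same length, 28.3% hold it as well. The Tlr8 window held no match to the NF-kB motif (present in 4.51% of windows), to the interferon-stimulated response element (3.44%) or to the composite element of ETS and IRF factors (2.72%). Motifs can overlap each other, and a match is only a run of letters. RefSeq windows were found for 8 of the 10 genes, without Tlr4 and Tlr7. NF-kB letters occurred in the windows of Tlr2 (4 matches) and Tlr3 (1 match), neither of which was called. In the RefSeq gene order, Tlr8 and Tlr7 are neighbours on the X chromosome, as are Tlr1 and Tlr6 on chromosome 5.

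In mice, Tlr8 is an endosomal receptor closely related to Tlr7. Its human counterpart senses degradation products of single-stranded RNA. The remission arrays measured Tlr8 at 6.20, 6.75, 8.00 and 7.35 on the log2 scale. The nephritic arrays ran from 7.70 through a median of 8.31 to 8.56, and the prenephritic arrays from 6.31 through 6.79 to 7.07. All 7 nephritic arrays lay above all 6 prenephritic arrays. Among the remission arrays, 2 lay within or below the prenephritic range, 1 lay between the ranges of both other groups and 1 lay within the nephritic range.

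**Figure D1:**
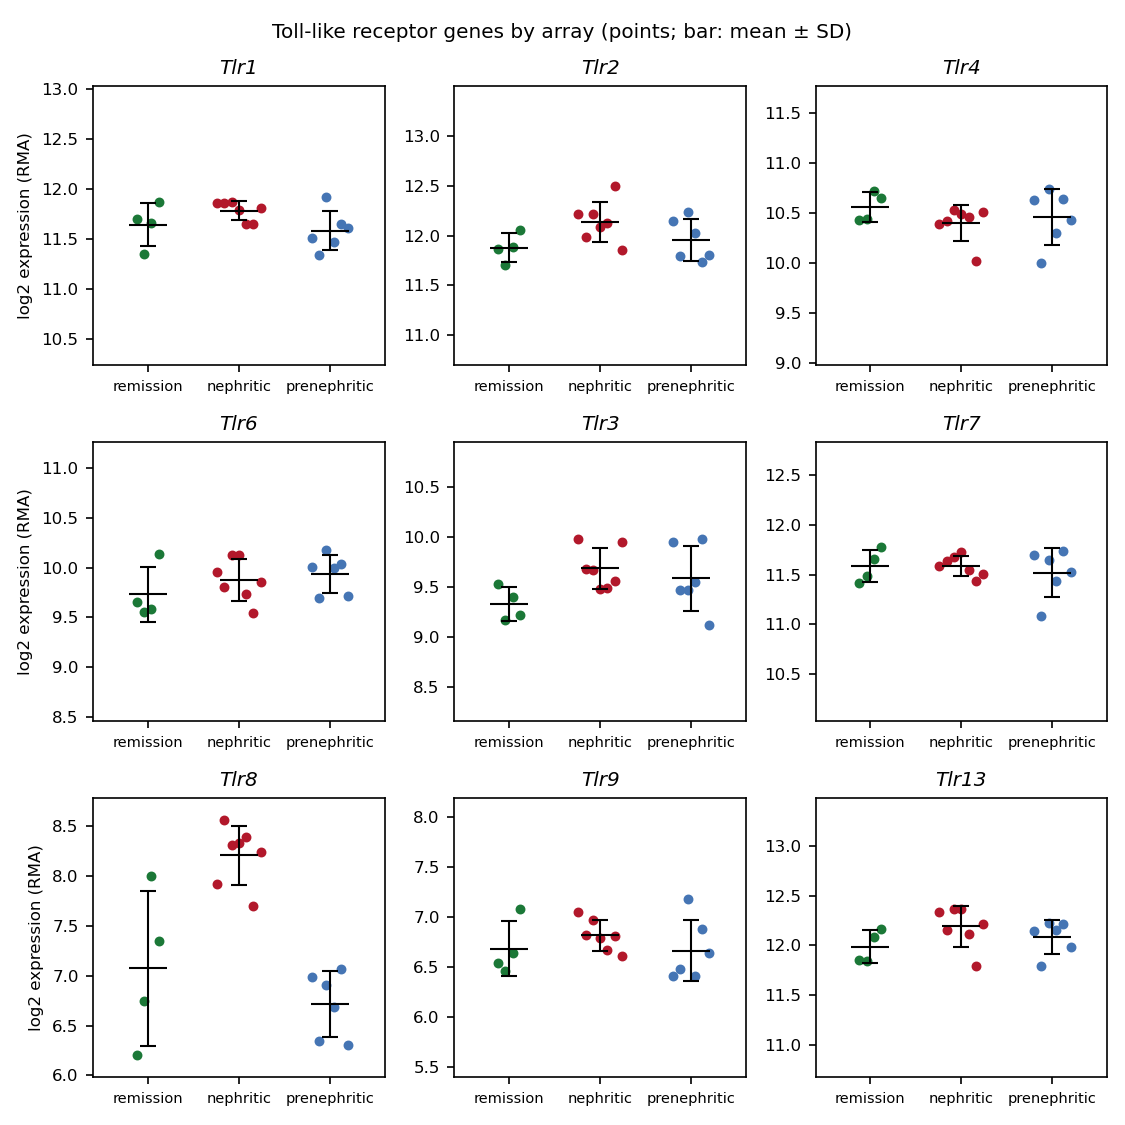
Log2 expression of the 9 measured Toll-like receptor genes on each array (vertical axis, deposited RMA values) in remission (4 arrays), nephritic (7) and prenephritic (6) macrophages, with group means and SD. Tlr8 averages 7.07 in remission, 8.21 in nephritic and 6.72 in prenephritic arrays. Its nephritic and prenephritic arrays do not overlap, while its remission arrays overlap both other groups. The groups of every other member overlap in every comparison.

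Between nephritic and prenephritic macrophages, the mean of Tlr8 was 8.21 ± 0.29 against 6.72 ± 0.33 (SD over 7 and 6 arrays), a log2 difference of 1.49 ± 0.23 (SE) or 2.81-fold (95% interval 1.99 to 3.97). Its adjusted p was 0.00055 in limma's moderated test, with Benjamini-Hochberg adjustment over all 15780 genes and a threshold of 0.05. The exact two-sided permutation test of the same 13 arrays gave p = 0.00058, the smallest it can give. The difference lay at the 99.4th percentile of all genes. Leaving out any array kept it between 1.41 and 1.58.

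Tlr8 fell by 1.13 ± 0.26 (SE) on the log2 scale in remission relative to nephritic macrophages, 2.19-fold lower with a 95% interval of 1.49 to 3.23. Remission arrays averaged 7.07 ± 0.78 (SD, n = 4) and nephritic arrays 8.21 ± 0.29 (SD, n = 7), with adjusted p = 0.0098 in limma and an exact two-sided permutation p of 0.0091. The SD among the remission arrays was the largest of the 3 groups. The 2 remission arrays with the lowest Tlr8, replicates 1 and 2, were also those with the highest level of kidney tubule genes. The mean level of 16 tubule genes was 11.29, 11.63, 10.86 and 10.25 in remission replicates 1 to 4, against 8.17 to 10.79 in nephritic arrays and 9.38 to 11.06 in prenephritic arrays, and 4 of the 16 genes were higher in remission than in nephritic arrays by limma's test. With the tubule level as a covariate the difference was -0.85 (adjusted p = 0.089 in limma). Without the 3 arrays farthest from the median tubule level (nephritic replicate 3 and remission replicates 1 and 2), it was -0.52 (adjusted p = 0.42). The nephritic minus prenephritic difference was 1.42 with the covariate (adjusted p = 0.00040) and 1.48 without the 3 arrays (adjusted p = 0.00016). Without 1 remission array, the difference to nephritic arrays ranged from -1.44 (without replicate 3) to -0.84 (without replicate 1).

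**Figure D2:**
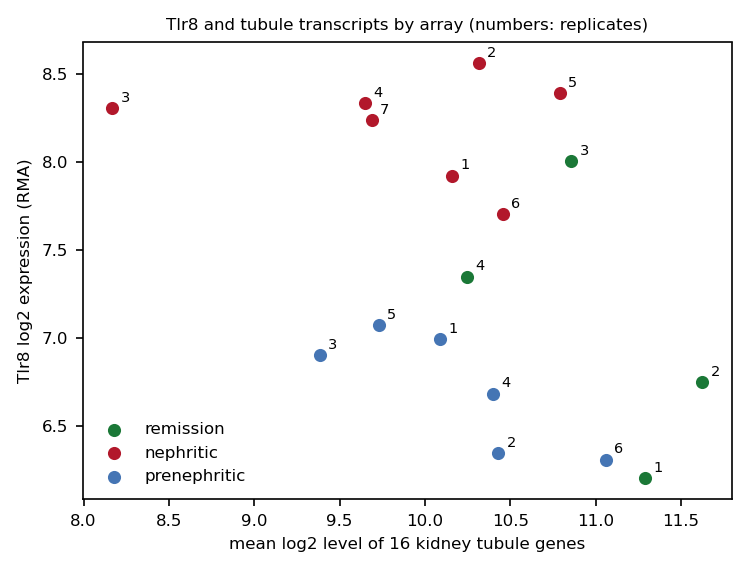
Log2 level of Tlr8 on each array (vertical axis) against the mean log2 level of 16 kidney tubule genes on the same array (horizontal axis), by group. Remission replicates 1 and 2 lie at tubule levels of 11.29 and 11.63 with the lowest Tlr8 values of their group, 6.20 and 6.75.

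Between remission and prenephritic macrophages, Tlr8 averaged 7.07 ± 0.78 (SD, n = 4) and 6.72 ± 0.33 (SD, n = 6). The difference of 0.36 ± 0.27 (SE) did not pass the threshold (adjusted p = 0.46 in limma), and its 95% interval ran from -0.22 to 0.93. The value depended on single remission arrays, at 0.05 without replicate 3 and 0.65 without replicate 1. It was 0.96 (adjusted p = 0.46 in limma) without the 3 arrays farthest from the median tubule level, so neither a return to the prenephritic level nor a remaining difference was settled. Its order of levels was nephritic, remission and prenephritic, of which remission and prenephritic did not differ beyond their spread.

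The endosomal receptors closest to Tlr8 in function stayed within narrower bounds. Tlr7, the receptor for single-stranded RNA and the neighbour of Tlr8 on the X chromosome, measured 11.42, 11.49, 11.66 and 11.77 in remission arrays, 11.43 to 11.72 (median 11.59) in nephritic arrays and 11.08 to 11.73 (median 11.58) in prenephritic arrays. The groups overlapped throughout. Its nephritic minus prenephritic difference was 0.07 ± 0.10 (SE, adjusted p = 0.74 in limma), with a 95% interval of -0.14 to 0.27. The level of Tlr8 relative to Tlr7 on the log2 scale was -3.38 ± 0.24 on the 7 nephritic arrays and -4.80 ± 0.21 (SD) on the 6 prenephritic arrays. This within-array difference, whose absolute size depends on the probes, was higher by 1.42 in nephritic arrays. Relative to each of the 8 other members, Tlr8 changed by 1.29 to 1.55 in nephritic against prenephritic arrays and by -1.29 to -0.77 in remission against nephritic arrays. These values restate the difference of Tlr8 beside members that differed little, were computed after it had been seen and are given without a test.

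Tlr3, the receptor for double-stranded RNA, measured 9.53, 9.17, 9.40 and 9.22 in remission arrays, 9.48 to 9.98 (median 9.67) in nephritic and 9.12 to 9.98 (median 9.51) in prenephritic arrays. Only remission replicate 1 reached the nephritic range. The remission minus nephritic difference was -0.36 ± 0.15 (SE), the largest in size among the uncalled members of that comparison, with adjusted p = 0.12 in limma and an unadjusted exact permutation p of 0.018. Its 95% interval ran from -0.67 to -0.04. Tlr9, the receptor for DNA with CpG motifs, measured 6.54, 6.47, 6.64 and 7.08 in remission arrays, 6.61 to 7.05 (median 6.81) in nephritic and 6.41 to 7.18 (median 6.56) in prenephritic arrays. All groups overlapped, and its difference between nephritic and prenephritic macrophages was 0.15 ± 0.13 (SE, adjusted p = 0.53 in limma). Tlr13, which recognises bacterial ribosomal RNA in mice, measured 11.85, 11.84, 12.09 and 12.16 in remission arrays, 11.79 to 12.37 (median 12.22) in nephritic and 11.79 to 12.23 (median 12.15) in prenephritic arrays. Its groups overlapped, and the remission minus nephritic difference was -0.21 ± 0.11 (SE, adjusted p = 0.24 in limma).

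None of the surface receptors passed the threshold in any comparison. Tlr2 measured 11.87, 11.70, 11.89 and 12.06 in remission arrays, 11.85 to 12.49 (median 12.13) in nephritic arrays and 11.74 to 12.23 (median 11.91) in prenephritic arrays. Remission replicate 2 lay below the nephritic range and the other 3 within it, and the difference between them was -0.26 ± 0.12 (SE, adjusted p = 0.16 in limma). Tlr1, which pairs with Tlr2, measured 11.70, 11.35, 11.66 and 11.87 in remission arrays, 11.65 to 11.87 (median 11.81) in nephritic and 11.34 to 11.92 (median 11.56) in prenephritic arrays. Its nephritic arrays lay in the upper part of the prenephritic range. The difference of 0.20 ± 0.09 (SE) had adjusted p = 0.19 in limma and an unadjusted exact permutation p of 0.041. Tlr6, the other partner of Tlr2, measured 9.65, 9.55, 9.58 and 10.14 in remission arrays, 9.54 to 10.13 (median 9.86) in nephritic and 9.70 to 10.18 (median 9.999) in prenephritic arrays. Remission replicate 4 stood above the other remission arrays, and the groups overlapped. Tlr4, the lipopolysaccharide receptor, measured 10.43, 10.44, 10.72 and 10.65 in remission arrays, 10.02 to 10.53 (median 10.46) in nephritic and 10.002 to 10.75 (median 10.53) in prenephritic arrays. Its remission minus nephritic difference was 0.16 ± 0.13 (SE, adjusted p = 0.46 in limma), the only one above 0 among the members. Tlr12, which detects profilin of protozoa in mice and is no member, differed by -0.37 ± 0.15 (SE) between nephritic and prenephritic arrays (adjusted p = 0.12 in limma).

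**Figure D3:**
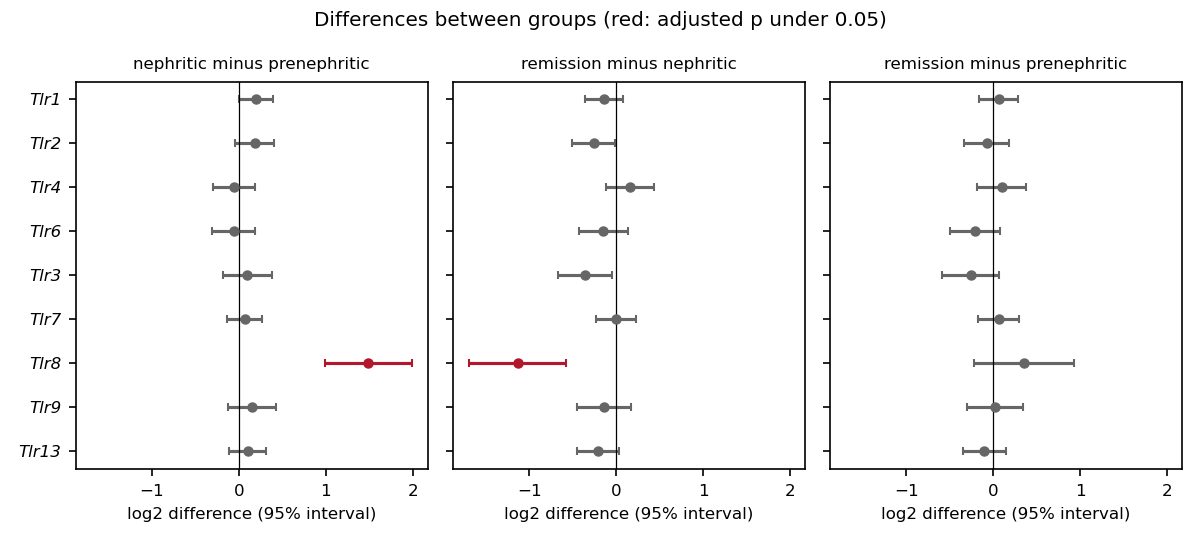
Log2 difference of each measured Toll-like receptor gene with its 95% interval (horizontal axis) in the comparisons of remission with nephritic, nephritic with prenephritic and remission with prenephritic macrophages. The interval of Tlr8 runs from -1.69 to -0.57 for remission minus nephritic and from 1.00 to 1.99 for nephritic minus prenephritic, and those of most other members include 0.

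Counted over the family, 1 of 9 members was higher and 0 were lower in nephritic than in prenephritic macrophages, where 6.74% of all genes were higher and 5.32% lower. In remission relative to nephritic macrophages, 0 of 9 were higher and 1 of 9 was lower, where 3.27% of all genes were higher and 10% lower. In remission relative to prenephritic macrophages 0 of 9 were called by limma, and 0.00634% of all genes were, all of them lower. That background was not stable, since without prenephritic replicate 6 it was 171 genes lower and 28 higher, and with array weights 289 lower and 69 higher. These shares lie near the background, so the counts describe Tlr8 and not the family. The median member difference was 0.10 for nephritic minus prenephritic, beside -0.02 over all genes, and -0.15 for remission minus nephritic, beside -0.03. The 95% intervals of the uncalled members allowed changes of at most 1.35-fold between nephritic and prenephritic and 1.59-fold between remission and nephritic macrophages. The group means of all 9 members lay above 5.02, the lower quartile of the probe sets' means. Groups without overlap occurred for 1 of 9 members in nephritic against prenephritic arrays, Tlr8, where 3.07% of all genes had every nephritic array above every prenephritic one and 1.61% every one below. The remission and nephritic arrays overlapped for all 9 members, beside 1.70% of all genes with remission wholly higher and 6.95% wholly lower. The remission and prenephritic arrays overlapped for all 9 as well, beside 0.393% and 1.93%. Tlr8 also varied most among arrays of the same group. Its residual SD was 0.45, at the 90.4th percentile of all genes, while those of the other members ran from 0.17 to 0.25 and the median gene had 0.18.

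Arrays of the same group varied together in several members. After group means were removed, Pearson's r over the 17 arrays was 0.87 for Tlr4 with Tlr7 and 0.86 for Tlr6 with Tlr13. It was 0.65 for Tlr7 with Tlr8 and -0.07 for Tlr2 with Tlr3, the lowest of all pairs. The members' correlation with the tubule level ran from -0.78 for Tlr6 to -0.24 for Tlr2, with -0.40 for Tlr8. These values describe 17 arrays that share their normalization, and have no test. Over all 17 arrays, the genes most like Tlr8 were Clec4b1 (r = 0.955) and Clec4a3 (r = 0.939), which encode C-type lectin receptors, and Gdf3 (r = 0.938), a growth factor of the TGF-beta family. Gdf3 averaged 8.72 ± 0.59 in remission (SD, n = 4), 10.3 ± 0.32 in nephritic (SD, n = 7) and 8.05 ± 0.51 in prenephritic arrays (SD, n = 6). The likeness was chosen on the group pattern as well. With group means removed, r was 0.84 for Clec4b1 and 0.75 for both Clec4a3 and Gdf3.

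The genes around the receptors changed in part. Of 110 listed genes for co-receptors, trafficking, adaptors, kinases, transcription factors, inhibitors, targets and endogenous ligands, 99 were measured. In nephritic against prenephritic macrophages 19 were higher (19.2%, beside 6.74% of all genes) and 6 lower (6.06%, beside 5.32%). In remission against nephritic macrophages 2 were higher (2.02%, beside 3.27%) and 20 lower (20.2%, beside 10% of all genes). In remission against prenephritic macrophages 0 passed in limma. The median over the listed genes was 0.05 for nephritic minus prenephritic, beside -0.02 over all genes, and -0.24 for remission minus nephritic, beside -0.03. Counts of 1 gene in a single list are too small to set apart from these shares. The lists were chosen with earlier results of these data known. The count of 20 lower genes was 13 with the tubule level as a covariate, 13 without remission replicate 1 or without remission replicate 2, and 2, Myd88 and Ikbke, without the 3 arrays farthest from the median tubule level. The count of 19 higher genes was 12 without nephritic replicate 6 and prenephritic replicate 5, which stood apart on cytokine genes in an earlier analysis. The count of 6 lower genes was 2 without prenephritic replicate 1 or 3 and 3 without prenephritic replicate 4 or nephritic replicate 1, 2, 5 or 7.

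Among 5 adaptors, 2 were higher in nephritic than in prenephritic macrophages and 2 were lower in remission than in nephritic ones. Myd88, the adaptor of all members except Tlr3, averaged 10.13 ± 0.25 in remission (SD, n = 4), 10.94 ± 0.18 in nephritic (SD, n = 7) and 10.38 ± 0.19 in prenephritic arrays (SD, n = 6). It rose by 0.57 ± 0.11 (SE, adjusted p = 0.0024 in limma) in nephritic relative to prenephritic macrophages and fell by 0.81 ± 0.12 (SE, adjusted p = 0.00051) in remission relative to nephritic ones, without overlap of the groups in either comparison. Pik3ap1, a phosphoinositide 3-kinase adaptor, rose by 0.52 ± 0.10 (SE, adjusted p = 0.0031 in limma) and fell by 0.53 ± 0.12 (SE, adjusted p = 0.0067) in the same comparisons.

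Among 15 kinases and ubiquitin ligases, 2 were higher and 1 lower in nephritic against prenephritic macrophages, and 1 was higher and 3 lower in remission against nephritic ones. Ikbke, the kinase IKK-epsilon, averaged 6.79 ± 0.47 in remission (SD, n = 4), 9.89 ± 0.63 in nephritic (SD, n = 7) and 7.00 ± 0.54 in prenephritic arrays (SD, n = 6). It rose by 2.89 ± 0.29 (SE, adjusted p = 1.4e-05 in limma) in nephritic relative to prenephritic macrophages and fell by 3.10 ± 0.33 (SE, adjusted p = 4.4e-05) in remission relative to nephritic macrophages. Peli2, a Pellino ubiquitin ligase, moved the other way, at -0.68 ± 0.11 (SE, adjusted p = 0.00070 in limma) and 0.65 ± 0.12 (SE, adjusted p = 0.0029). Of 9 NF-kB and interferon regulatory factor genes, 3 were higher and 1 lower in nephritic against prenephritic macrophages, and 3 lower in remission against nephritic ones. Irf7, which drives type I interferon production, rose by 1.06 ± 0.24 (SE, adjusted p = 0.0077 in limma) and fell by 1.41 ± 0.27 (SE, adjusted p = 0.0029). Relb and Nfkb2, subunits of the noncanonical NF-kB pathway, rose by 0.68 ± 0.16 and 0.51 ± 0.12 (SE) in nephritic against prenephritic macrophages. Their adjusted p was 0.011 and 0.013 in limma. Their remission minus nephritic differences were -0.94 ± 0.18 and -0.87 ± 0.14 (SE), with adjusted p of 0.0031 and 0.00083 in limma. Irf8, a myeloid transcription factor, differed by -0.42 between nephritic and prenephritic macrophages (adjusted p = 0.039 in limma), a call lost under 13 of 30 alternatives.

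Of 16 inhibitors of signalling, 3 were higher in nephritic than in prenephritic macrophages and 3 lower in remission than in nephritic ones. Irak3, a kinase-like brake on Myd88 signalling, rose by 1.06 ± 0.19 (SE, adjusted p = 0.0014 in limma) and fell by 1.13 ± 0.21 (SE, adjusted p = 0.0025) in the 2 comparisons. Socs3, a suppressor of cytokine signalling, rose by 1.31 ± 0.34 (SE, adjusted p = 0.018 in limma). Its remission minus nephritic difference was -1.44 ± 0.38 (SE, adjusted p = 0.020 in limma). The co-receptor list had 0 of 6 genes higher and 2 lower in nephritic against prenephritic macrophages. These were Cd36, a scavenger receptor that helps Tlr2 and Tlr6, at -0.92 ± 0.11 (SE, adjusted p = 5.6e-05 in limma), and Cd14, the lipopolysaccharide carrier of Tlr4, at -0.35 ± 0.11 (SE, adjusted p = 0.047), a call lost under 16 of 30 alternatives. In remission relative to nephritic macrophages 1 of the 6 was higher, Cd36 at 0.55 ± 0.12 (SE, adjusted p = 0.0079 in limma), and 1 lower, Cd180, a Toll-like receptor homologue, at -0.65 ± 0.17 (adjusted p = 0.016). Of 12 genes for trafficking and processing of the endosomal receptors, 3 were higher and 1 lower in nephritic against prenephritic macrophages. The proteases Ctsl, at 0.88 ± 0.15 (SE, adjusted p = 0.0013 in limma), Lgmn, at 0.53 ± 0.11 (adjusted p = 0.0046), and Ctsb, at 0.28 ± 0.07 (adjusted p = 0.017), were the 3 higher ones. Unc93b1, the carrier of the endosomal receptors, differed by 0.21 (adjusted p = 0.35 in limma). In remission relative to nephritic macrophages, 0 of these 12 genes were higher and 3 lower.

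Of 24 target genes, 5 were higher and 1 lower in nephritic against prenephritic macrophages, and 5 lower in remission against nephritic ones. Il10, an anti-inflammatory cytokine, rose by 2.47 ± 0.51 (SE, adjusted p = 0.0043 in limma), Saa3, an acute-phase protein, by 2.04 ± 0.31 (SE, adjusted p = 0.00038), Cd40, the receptor of CD154, by 1.19 ± 0.17 (SE, adjusted p = 0.00020) and Ccl2, a monocyte chemokine, by 1.21 ± 0.22 (SE, adjusted p = 0.0016). The classical targets Tnf, Il1b and Il6 did not pass the threshold, with differences of -0.16, 0.16 and -0.01. Il10, Cd40 and Ccl2 were among the 5 lower in remission than in nephritic macrophages, and Saa3 was not (-0.41, adjusted p = 0.48 in limma). In remission against prenephritic macrophages Saa3 differed by 1.63, which did not pass the threshold (adjusted p = 0.12 in limma). Among 12 endogenous ligands, 1 was higher in nephritic than in prenephritic macrophages, Tnc (tenascin-C) at 0.65 ± 0.19 (SE, adjusted p = 0.030 in limma, lost under 9 of 30 alternatives), and 0 were called in remission against nephritic ones.

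**Figure D4:**
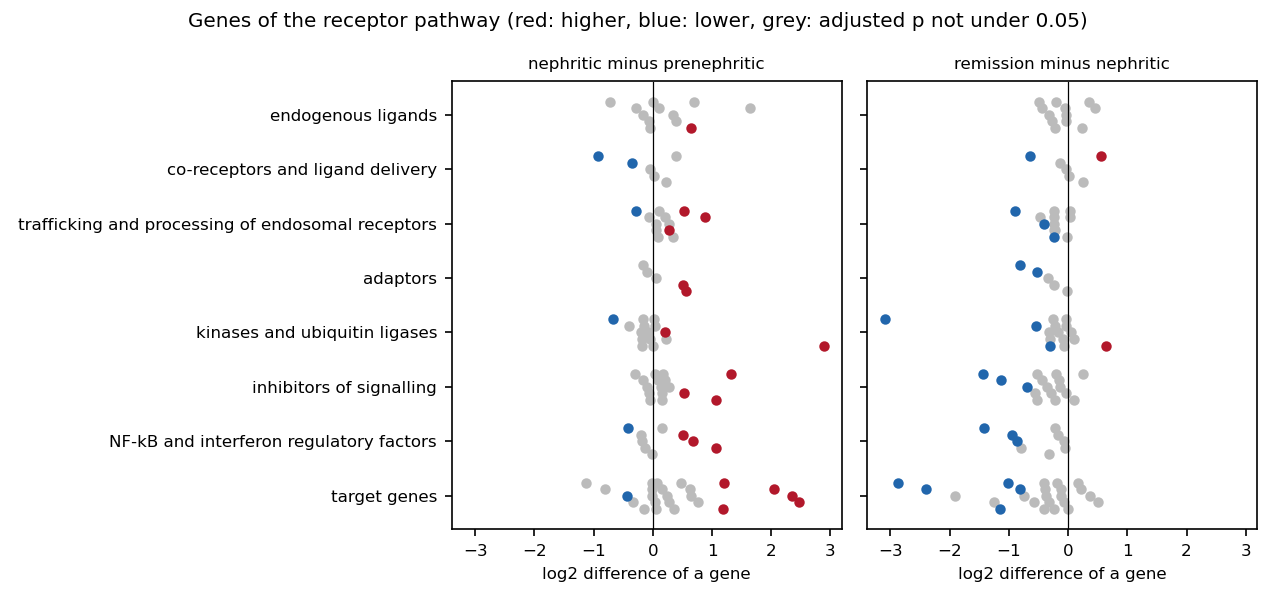
Log2 difference (horizontal axis) of each measured pathway gene in remission relative to nephritic and in nephritic relative to prenephritic macrophages, grouped by role. Colours mark genes called higher (red), lower (blue) or not called (grey) by limma. Among the genes named in the text, Ikbke, at -3.10 and 2.89, lies farthest from 0 in both comparisons.

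Some markers of other cells were called by limma in the same comparisons. In sorted bulk RNA a larger share of a cell type and more RNA per cell cannot be told apart. Of all genes, 6.74% were higher and 5.32% lower in nephritic than in prenephritic arrays. In remission against nephritic arrays the shares were 3.27% higher and 10% lower. Counts of 1 marker in a list are too small to set apart from these shares. Of the 10 macrophage genes themselves, 2 were higher in nephritic than in prenephritic arrays, Mertk at 1.22 and Fcgr1 at 0.63. The same 2 were lower in remission than in nephritic arrays, at -1.26 and -0.55. Of 7 monocyte markers, 4 were higher in nephritic than in prenephritic arrays and 4 lower in remission than in nephritic ones. Their mean level ranged from 8.22 to 8.74 in remission, from 8.63 to 9.38 in nephritic and from 8.18 to 8.92 in prenephritic arrays. Of 9 T and NK cell markers, 3 were higher in nephritic than in prenephritic arrays and 6 lower in remission than in nephritic ones. Their mean level was low, at 4.98 in remission, 5.67 in nephritic and 5.30 in prenephritic arrays, near the lower quartile of 5.02. Of 7 plasma cell markers, 5 were higher and 1 lower in nephritic than in prenephritic arrays, among them Mzb1 at 7.17 ± 0.60 in nephritic and 5.22 ± 0.79 in prenephritic arrays (SD). Of 6 B cell markers, 1 was higher in nephritic than in prenephritic arrays. Ms4a1, which encodes CD20, averaged 4.24 in remission, 5.38 in nephritic and 4.57 in prenephritic arrays, near the lower quartile. Of 8 plasmacytoid markers, 1 was higher and 1 lower in nephritic than in prenephritic arrays, the lower one Siglech, at -2.73. Of 8 markers of type 2 conventional and migratory dendritic cells, 4 were lower in nephritic than in prenephritic arrays, among them Cd209a at -3.73 and Flt3 at -1.63, and 1 was lower in remission than in nephritic arrays. Their mean level ranged from 6.37 to 7.36 in remission, from 6.62 to 7.51 in nephritic and from 6.94 to 8.86 in prenephritic arrays. Of 6 markers of type 1 conventional dendritic cells, 1 was higher, Xcr1 at 2.37, and 1 lower in nephritic than in prenephritic arrays. Of 8 mast cell and eosinophil markers, 2 were lower in nephritic than in prenephritic arrays and 2 higher in remission than in nephritic ones. Their mean level, at 4.81 in remission, 4.49 in nephritic and 4.87 in prenephritic arrays, lay below the lower quartile. Of 8 fibroblast and mesangium markers, 2 were higher and 1 lower in nephritic than in prenephritic arrays, and 1 was higher and 2 lower in remission than in nephritic ones. Of 8 endothelium markers, 1 was higher in nephritic than in prenephritic arrays, Pecam1 at 1.84, and 1 lower in remission than in nephritic ones, Pecam1 at -2.05. Of 9 neutrophil markers, 1 was higher in nephritic than in prenephritic arrays and 1 lower in remission than in nephritic ones. The part of these cells in the Tlr8 result was not tested.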

How the data were processed

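The deposited values are on the log2 scale and come from RMA, per the submitters' processing notes. The sources used here give neither its version nor the probe definition. RMA forces the arrays onto a common distribution, which hides any change in the RNA content of a cell. The number of arrays limits the precision. The table held 16539 probe sets, 64 of them controls. Of the rest, 15780 had 1 symbol in GEO's platform annotation, 0 had several and 695 had none; 15752 were found in a RefSeq table of GRCm38.p6 by Entrez identifier.

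The linear model had 1 mean for each group, over all 17 arrays, in limma 3.58.1 in R 4.3.3 (14 residual degrees of freedom). Moderated tests were two-sided, with Benjamini-Hochberg adjustment over the 15780 genes and a threshold of 0.05. The fit was tested on simulated data. Single genes were also tested with an exact permutation test over samples. The members, lists and tests were chosen with earlier results of these data known. Named were all members, Tlr12 and the 3 genes most correlated with Tlr8. From each signalling list, up to 4 genes with the smallest p in nephritic minus prenephritic arrays were selected. Up to 2 were added for each remission comparison, and the defining markers were selected from the cell lists. Only part of the genes and markers so selected appears in the text. Some further genes of the lists (Tnf, Il1b, Il6 and Unc93b1) were named after their values were seen. Alternatives changed the genes tested, normalization, variance prior, array weights, groups fitted, threshold, tubule covariate, replicate block and arrays left out.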

Additional observations from a re-analysis of the deposited data

Results flagged for a closer look

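In 2 of 27 groups of arrays a single value stood apart from the others of its group by Dixon's test, which chance gives in about 1 of 20 groups. Tlr4 in nephritic replicate 6 was 10.02, with the nearest nephritic array at 10.39. Tlr6 in remission replicate 4 was 10.14, with the nearest remission array at 9.65. Neither gene was called in any comparison.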

How the results depend on the processing

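The nephritic minus prenephritic difference of Tlr8 passed the threshold under every alternative run, at 1.41 to 1.65. Its remission minus nephritic difference lost the call with the tubule covariate and without the 3 arrays farthest from the median tubule level, a setting chosen after seeing the data, so that 0 members were then lower. By the exact permutation test without adjustment, 2 members were higher in nephritic than in prenephritic arrays, with Tlr1 added. By the same test 2 were lower in remission than in nephritic arrays, with Tlr3 added. The share of all genes passing this unadjusted test was not computed, so these counts have no background beside them. Neither Tlr1 nor Tlr3 passed limma's adjusted threshold. The replicate numbers showed no clear pairing of the arrays. With group means removed, 3 of 16 arrays correlated best with their own number. The 14 same-numbered pairs had correlations from -0.26 to 0.80, with a median of 0.12 beside 0.005 for other pairs. Whether single numbers mark arrays that belong together was not tested. With the replicate block, Tlr8 differed by 1.49 (adjusted p = 0.0028 in limma) between nephritic and prenephritic, by -1.17 (0.014) between remission and nephritic and by 0.31 (0.45) between remission and prenephritic arrays. The signs that turned belong to uncalled differences. With the tubule covariate, remission minus nephritic was 0.13 for Tlr7, 0.015 for Tlr1, 0.12 for Tlr6 and 0.075 for Tlr9, and remission minus prenephritic was 0.038 for Tlr13. Without the 3 arrays, remission minus nephritic was 0.14 for Tlr7, 0.022 for Tlr6 and 0.069 for Tlr9, and remission minus prenephritic was 0.019 for Tlr2 and 0.038 for Tlr13. After repeated quantile normalization, Tlr7 was 0.030 (remission minus nephritic) and Tlr9 -0.0031 (remission minus prenephritic), and with array weights Tlr9 was -0.018. Without the 2 arrays that stood apart on cytokine genes, nephritic minus prenephritic was 0.043 for Tlr4 and 0.018 for Tlr6. Leaving out 1 array gave ranges for nephritic minus prenephritic of -0.021 to 0.11 for Tlr7 and -0.15 to 0.0058 for Tlr4, for remission minus nephritic of -0.066 to 0.053 for Tlr7, and for remission minus prenephritic of -0.023 to 0.12 for Tlr7, -0.12 to 0.12 for Tlr9 and -0.014 to 0.16 for Tlr1. The cause of these turns was not tested. Over all genes, nephritic minus prenephritic calls ran from 434 to 1439 higher (1064 as reported) and from 296 to 1637 lower (840), and remission minus nephritic calls from 48 to 1239 higher (516) and from 233 to 2385 lower (1584). Remission minus prenephritic calls ran from 0 to 234 higher (0) and from 0 to 289 lower (1). Leaving out 1 array gave Tlr8 differences of 0.05 to 0.65 there. Of the 42 called differences of the pathway genes selected by smallest p, printed in the text or not, 12 kept the call under every alternative.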
